A study of Rattus norvegicus with 6 samples.

Results

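The von Ebner glands are small serous salivary glands that drain into the trench around the circumvallate papilla, the taste structure at the back of the tongue. Of the 14405 genes listed for this tissue, 5 genes known as secretory products of these or related salivary glands are described here, chosen by name: Lipf, Lcn1, Vegp2, Bpifb1 and Bpifa2. Each name matched 1 row, and all 5 passed the filter of at least 1 FPKM in at least 3 libraries that 13154 genes passed. FPKM counts sequenced fragments per transcript length and sequencing total, so it compares levels between genes per length and within a library's total.

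The tissue was labelled as dorsal tongue epithelium, and the series places it at the circumvallate papilla. The control group was 3 libraries from rats without periodontitis, and the other group was 3 libraries from rats with chronic periodontitis, a lasting inflammation of the tissue around the teeth. The sources used here do not give strain, age, sex, how periodontitis was brought about or whether each library is 1 animal. The p-values therefore reflect only how far these libraries differ among themselves, and that spread may be technical. Of the markers of the labelled tissue, the epithelial keratin gene Krt13 had at least 4068 FPKM and the taste cell gene Gnat3 at least 6.65 FPKM in each library.

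Saliva of the von Ebner glands bathes the taste buds of the papilla and is known for a lipase and small lipid-binding proteins. Lipf encodes lingual lipase, an acid-stable enzyme that starts the digestion of dietary fat. Lcn1 and Vegp2 encode von Ebner's gland proteins, members of the lipocalin family, which carry small hydrophobic molecules in a barrel-shaped pocket. Bpifb1 and Bpifa2 encode secreted proteins of the BPI fold family, related to the bactericidal/permeability-increasing protein, and Bpifa2 is the parotid secretory protein of the large salivary glands.

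Lcn1 and Vegp2 are neighbours, and the sequence around their start sites is nearly the same in both. The deposited tables place Vegp2 on the minus strand of chromosome 3 (4217260 to 4221330) and Lcn1 on the plus strand (4233111 to 4236960), with 11780 bases between them. Bpifa2 (149493655 to 149501613) and Bpifb1 (149668102 to 149702399) are also on chromosome 3, and Lipf is on chromosome 1 (252284464 to 252302811). These positions come from the tables, whose rat build the sources do not name. RefSeq windows of the rat build GRCr8, from 250 bases before to 50 bases after the start of a gene, matched 4 of the 5 genes (Lcn1, Vegp2, Bpifb1 and Bpifa2). The 2 lipocalin windows are printed because they are nearly the same, and that of Bpifb1 as the window of an abundant gene outside that pair. They hold mostly sequence before the start, so they do not show how alike the transcripts are. They are Lcn1 at chr3:29930693-29930992 (plus strand), Vegp2 at chr3:29919113-29919412 (minus strand) and Bpifb1 at chr3:163132901-163133200 (plus strand). Capitals mark the letters TATAAA and, in the lipocalin windows, the 1 base that differs.
Lcn1: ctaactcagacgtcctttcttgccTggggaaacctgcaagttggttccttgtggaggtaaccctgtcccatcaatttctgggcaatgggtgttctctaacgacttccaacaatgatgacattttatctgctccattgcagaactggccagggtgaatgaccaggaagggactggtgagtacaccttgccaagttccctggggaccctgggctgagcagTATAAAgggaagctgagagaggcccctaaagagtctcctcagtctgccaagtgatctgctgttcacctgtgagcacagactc
Vegp2: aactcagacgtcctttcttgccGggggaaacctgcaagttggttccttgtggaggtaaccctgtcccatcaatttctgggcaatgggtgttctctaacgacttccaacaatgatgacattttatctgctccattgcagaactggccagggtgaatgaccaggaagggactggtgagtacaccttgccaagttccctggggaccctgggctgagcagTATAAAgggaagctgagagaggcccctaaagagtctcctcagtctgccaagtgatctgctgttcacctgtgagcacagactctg
Bpifb1: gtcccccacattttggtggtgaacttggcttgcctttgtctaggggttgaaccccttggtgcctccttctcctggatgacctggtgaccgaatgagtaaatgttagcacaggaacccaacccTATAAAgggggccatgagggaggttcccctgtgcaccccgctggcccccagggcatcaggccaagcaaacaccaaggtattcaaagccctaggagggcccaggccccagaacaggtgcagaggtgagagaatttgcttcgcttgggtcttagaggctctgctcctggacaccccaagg
Shifted by 2 bases, the lipocalin windows were identical at 297 of 298 bases (99.7%), and the difference was T25G, counted from 1 at the 5′ end of the Lcn1 window with the Lcn1 base first. The letters TATAAA, the core of a TATA box, began at -32 from the start of Lcn1, -34 from that of Vegp2 and -128 from that of Bpifb1, all on the gene's strand. In the Bpifa2 window they were found on the opposite strand at -88. On either strand, 14.2% of 33365 distinct windows of this length hold these letters. The letters CATATG and CAGCTG (4.08% and 15.1% of windows), which are E-boxes, and TGACGTG (1.80%), an unfolded protein response element, were in none of the 4 windows. Both strands were searched, no matches overlapped, and a match is a description of letters only.

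Lipf, Lcn1, Vegp2 and Bpifb1 were the 4 most abundant genes of each of the 6 libraries, in that order every time. Bpifa2 was not abundant: it ranked between 1269 and 8327 among the 14405 genes. The question the groups pose is whether these levels differed between periodontitis and control tissue. None of the 5 passed limma's test on log2(FPKM + 1), a linear model fitted to all 13154 tested genes with Benjamini-Hochberg adjustment and a threshold of 0.05, and all 5 adjusted p rounded to 1.0. That fit called 0% of the tested genes in either direction (0 genes, with 278 at an unadjusted p under 0.05).

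Lipf, the lingual lipase, had 52006, 48516 and 64422 FPKM in controls 1 to 3 and 30886, 44534 and 93161 FPKM in periodontitis 1 to 3. The lowest and the highest of the 6 libraries were both from the periodontitis group, and the groups overlapped. The means were 54981 ± 8360 FPKM in controls, compared with 56194 ± 32734 FPKM with periodontitis (SD, n = 3). On the log2(FPKM + 1) scale, the fold change of Lipf (periodontitis minus control) was -0.11 ± 0.66 (SE, limma adjusted p = 1.0), with a 95% interval from -1.65 to 1.42. The mean in FPKM was thus higher in periodontitis and that of the log2 values lower, as for Lcn1. The bounds of the interval correspond to 0.318-fold and 2.68-fold of the control level.

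Lcn1 had 46333, 46997 and 58496 FPKM in controls 1 to 3 and 26897, 42647 and 89155 FPKM in periodontitis 1 to 3. Its order over the periodontitis libraries was that of Lipf, and the groups overlapped in the same way. The means were 50609 ± 6838 and 52900 ± 32370 FPKM (SD, n = 3). The log2 fold change was -0.11 ± 0.66 (SE, limma adjusted p = 1.0; interval -1.65 to 1.44).

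Vegp2, the second lipocalin, had 38963, 41788 and 32864 FPKM in controls 1 to 3 and 23567, 35253 and 46854 FPKM in periodontitis 1 to 3. It was again lowest in periodontitis 1 and highest in periodontitis 3. Unlike Lipf and Lcn1, its lowest control was control 3, where they had their highest control level. The means were 37872 ± 4561 and 35225 ± 11643 FPKM (SD, n = 3), and the log2 fold change was -0.15 ± 0.55 (SE, limma adjusted p = 1.0; interval -1.43 to 1.13).

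Bpifb1 had 24141, 22662 and 29632 FPKM in controls 1 to 3 and 14191, 21194 and 39003 FPKM in periodontitis 1 to 3. The controls lay between periodontitis 1 and periodontitis 3. The means were 25478 ± 3673 and 24796 ± 12793 FPKM (SD, n = 3), with a log2 fold change of -0.16 ± 0.55 (SE, limma adjusted p = 1.0; interval -1.45 to 1.14).

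Bpifa2, the parotid secretory protein gene, had 11.5, 22.2 and 54.2 FPKM in controls 1 to 3 and 9.03, 6.40 and 15.4 FPKM in periodontitis 1 to 3. Periodontitis 1 and 2 were below every control, and periodontitis 3 was above control 1. The means were 29.3 ± 22.2 against 10.3 ± 4.65 FPKM (SD, n = 3). Its log2 fold change was -1.24 ± 0.54 (SE, limma adjusted p = 1.0; interval -2.49 to 0.02), and without control 3, its highest library, it was -0.67 (limma adjusted p = 1.0). Without control 1 it was -1.74.

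The 4 abundant genes varied more among periodontitis libraries than among controls. Their SD was 12.0% to 15.2% of the mean in controls and 33.1% to 61.2% in periodontitis. From periodontitis 1 to periodontitis 3 the level differed 3.02-fold for Lipf, 3.31-fold for Lcn1, 2.75-fold for Bpifb1 and 1.99-fold for Vegp2. For Bpifa2 the spread was larger in controls, at 75.9% of the mean against 45.2%. The difference in spread was not tested. In the order of levels, the means of Lipf and Lcn1 lay closer together than their SDs in both groups, although Lipf was the higher in each of the 6 libraries. In controls, the means of Lcn1, Vegp2 and Bpifb1 lay farther apart than their SDs. In periodontitis those of Vegp2 and Bpifb1 did not, and those of Lcn1 and Vegp2 lay farther apart than the SD of Vegp2 but not that of Lcn1. These SDs are between libraries, while the genes were measured in the same libraries, where their order never changed. The lowest ratios within a library were 1.03 for Lipf to Lcn1 and 1.12 for Lcn1 to Vegp2 (both control 2). For Vegp2 to Bpifb1 the lowest was 1.11 (control 3).

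**Figure D1:**
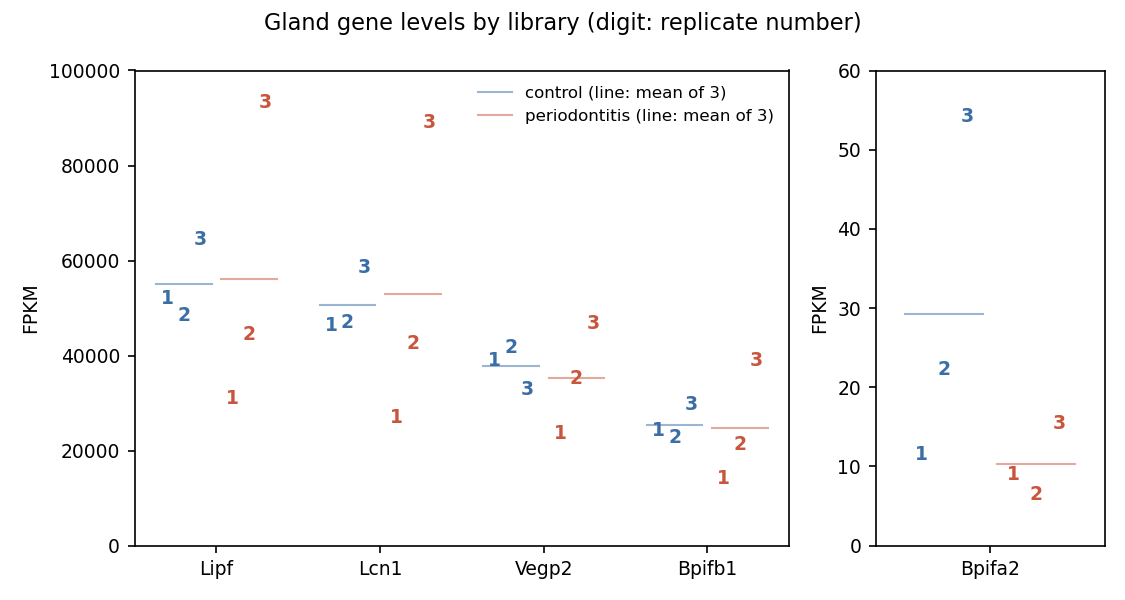
FPKM of Lipf, Lcn1, Vegp2 and Bpifb1 (left axis, linear from 0) and of Bpifa2 (right axis, linear from 0) in each library, with digits for replicate numbers, blue for control, red for periodontitis and a line at the mean of 3. For the 4 abundant genes periodontitis 1 is the lowest and periodontitis 3 the highest library, with means of the groups close together, while Bpifa2 is highest in control 3 (54.2 FPKM).

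As a share of the FPKM sum, the 5 genes together held 25.1%, 24.5% and 29.5% of controls 1 to 3. In periodontitis 1 to 3 they held 15.2%, 23.5% and 40.6%. The group means were 26.4% ± 2.70 and 26.4% ± 13.0 (SD, n = 3), and the groups overlapped. The difference, periodontitis minus control, was 0.0614 percentage points (two-sided exact permutation p = 1.0; adjusted p = 1.0 over 6 shares), in a design that cannot give a p below 0.10. It was -7.03 points without periodontitis 3 and 5.68 points without periodontitis 1, and it was also below 0 without control 1 (-0.55) or control 2 (-0.88), so its sign depends on which libraries are in.

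Lipf alone held between 4.91% (periodontitis 1) and 14.1% (periodontitis 3) of a library, and Lcn1 between 4.28% and 13.5%. Vegp2 held 3.75% to 7.09% and Bpifb1 2.26% to 5.90%. Bpifa2 held at most 0.00861% (control 3). None of the 5 shares passed the same test, which cannot give a p below 0.10. The exact permutation p was 0.20 for Bpifa2 and 0.80 to 1.0 for the others (adjusted p = 1.0 for each). Fewer gland cells in a sample and less RNA from each gland cell cannot be told apart in such bulk tissue.

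**Figure D2:**
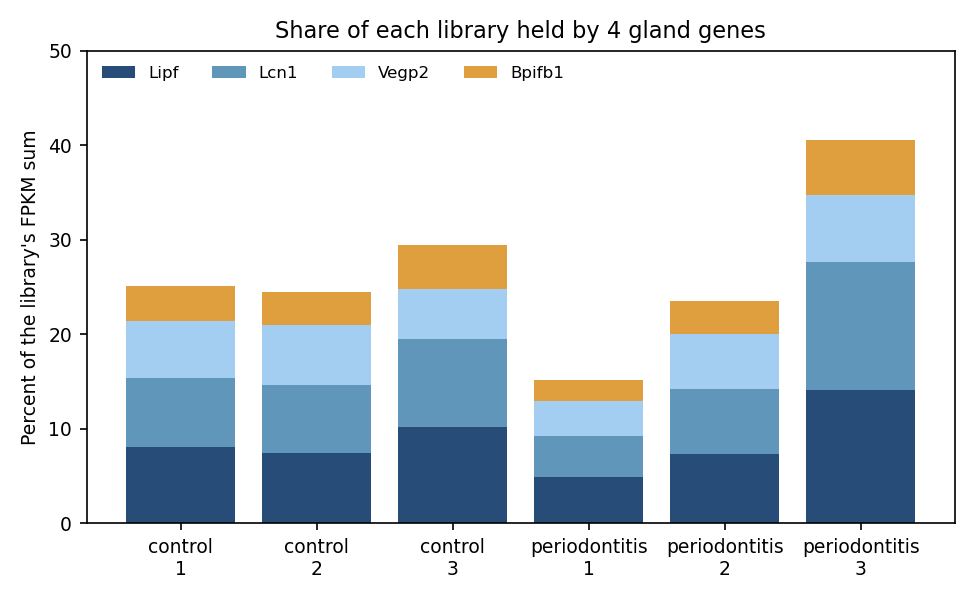
Percent of each library's FPKM sum (linear axis from 0) held by Lipf, Lcn1, Vegp2 and Bpifb1, stacked, for the 6 libraries; Bpifa2 is too low to draw. The bars are shortest in periodontitis 1 (15.2% with Bpifa2) and tallest in periodontitis 3 (40.6%), with the controls between.

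A ratio of 2 genes within a library does not depend on the library's total, so it shows whether the genes kept step. Lipf and Bpifb1 kept the closest step among controls: there were 2.15, 2.14 and 2.17 Lipf FPKM to each Bpifb1 FPKM in controls 1 to 3. In periodontitis 1 to 3 there were 2.18, 2.10 and 2.39. Lipf to Lcn1 was 1.12, 1.03 and 1.10 in controls and 1.15, 1.04 and 1.05 in periodontitis. Over the 6 libraries the highest ratio was 1.11 times the lowest for Lipf to Lcn1, 1.14 times for Lipf to Bpifb1 and 1.21 times for Lcn1 to Bpifb1. The levels of Lipf and Lcn1 themselves ranged over 3.02-fold and 3.31-fold.

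Vegp2 did not keep step with the other lipocalin. Lcn1 to Vegp2 was 1.19, 1.12 and 1.78 in controls 1 to 3 and 1.14, 1.21 and 1.90 in periodontitis 1 to 3. Control 3 and periodontitis 3 stood apart from the other 4 libraries, which lay close to each other, and there was 1 such library in each group. Lipf to Vegp2 was 1.96 and 1.99 in these 2 libraries and 1.16 to 1.33 in the others. Both libraries were also the lowest in the share of mitochondrially encoded genes, at 5.28% in control 3 and 4.66% in periodontitis 3, against 7.31% to 10.7% in the others, and the part of this in the ratio was not tested. How alike the Lcn1 and Vegp2 transcripts are was not examined here, and the part of reads being split between their rows was not tested. The 2 rows summed, a quantity added after the values were seen, had 85297, 88785 and 91360 FPKM in controls, compared with 50465, 77900 and 136009 FPKM in periodontitis 1 to 3. Lipf to this sum was 0.610, 0.546 and 0.705 in controls and 0.612, 0.572 and 0.685 in periodontitis (exact permutation p = 0.90 for the group difference).

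None of the 10 ratios passed the test between groups, but with 3 against 3 libraries that test cannot give a p below 0.10. It therefore does not show that the ratios were equal. Exact permutation p ranged from 0.20 to 1.0, and after adjustment over the 10 ratios from 0.667 to 1.0. The lowest p belonged to ratios with Bpifa2. There were 4540, 2183 and 1189 Lipf FPKM to each Bpifa2 FPKM in controls 1 to 3 and 3420, 6954 and 6032 in periodontitis 1 to 3. On the log2 scale the means were 11.2 ± 0.968 and 12.4 ± 0.542 (SD, n = 3), a difference of 1.20 (exact permutation p = 0.20, adjusted p = 0.667), and the groups overlapped.

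**Figure D3:**
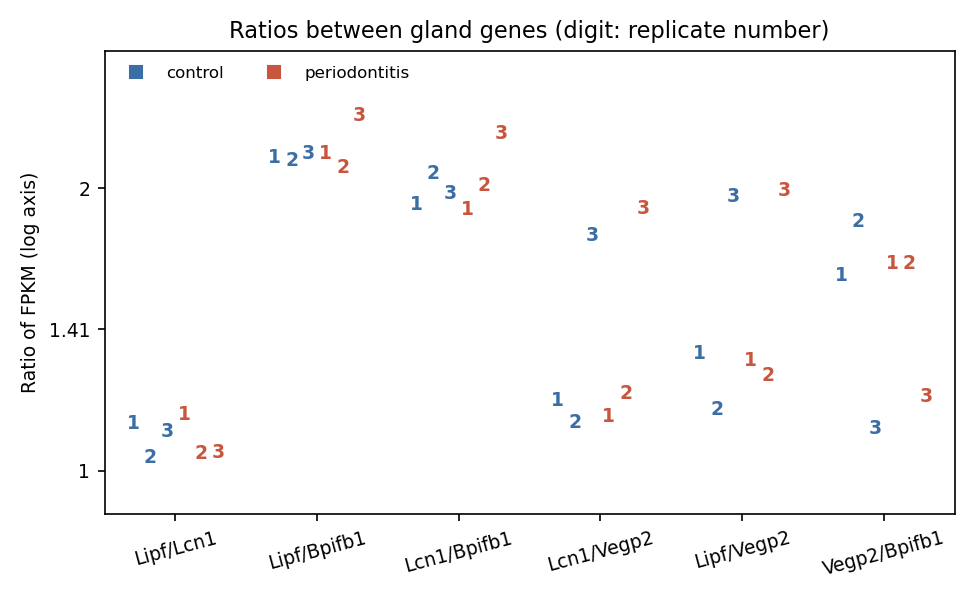
Ratio of FPKM between pairs of the 4 abundant genes (log axis) in each library, with digits for replicate numbers, blue for control and red for periodontitis. Ratios among Lipf, Lcn1 and Bpifb1 lie close together over the 6 libraries, while those with Vegp2 put control 3 and periodontitis 3 apart, as in Lcn1 to Vegp2 (1.78 and 1.90).

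Across the 6 libraries, the levels of Lipf, Lcn1 and Bpifb1 ran together. Pearson's r of log2(FPKM + 1) was 0.996 for Lipf and Bpifb1 (exact permutation p = 0.00139, adjusted p = 0.00926 over 10 pairs), with Spearman's rho of 1.0 (exact permutation p = 0.00278, adjusted p = 0.0278). Without periodontitis 1 and 3, the libraries farthest from the median, r was 0.999 over 4 libraries. For Lipf and Lcn1 r was 0.995 (exact permutation p = 0.00278, adjusted p = 0.00926), rho was 0.943 (exact permutation p = 0.0167, adjusted p = 0.0556) and r without those libraries was 0.974. For Lcn1 and Bpifb1 r was 0.994 (exact permutation p = 0.00278, adjusted p = 0.00926), rho was 0.943 (exact permutation p = 0.0167, adjusted p = 0.0556) and r without them was 0.975. With 5 libraries, leaving out control 3 or any periodontitis library, none of these pairs passed (exact permutation adjusted p = 0.0556), although no r fell below 0.987. The points share the library total, of which these genes are a large part, and 3 libraries in a group are too few for a value within it.

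Vegp2 followed the others less closely, and how closely depended on the libraries and the scaling. Its r was 0.786 with Lipf, 0.824 with Lcn1 and 0.804 with Bpifb1 (exact permutation p = 0.0764, 0.0611 and 0.0625; adjusted p = 0.125 to 0.127). Its rho was 0.60, 0.657 and 0.60 (exact permutation adjusted p = 0.25 to 0.269). Without periodontitis 1 and 3 the same r values were -0.52, -0.52 and -0.56. Without control 3 alone they were 0.879, 0.902 and 0.913 (exact permutation adjusted p = 0.117 to 0.125). Rescaled without the 5 genes, they were 0.893, 0.916 and 0.902 over the 6 libraries (exact permutation adjusted p = 0.0972). The relation thus rests on which libraries are in. Bpifa2 had r of 0.467 with Lipf, 0.444 with Lcn1, 0.490 with Bpifb1 and 0.170 with Vegp2 (exact permutation adjusted p = 0.392 to 0.732). Its rho with them was 0.657, 0.771, 0.657 and 0.257 (exact permutation adjusted p = 0.25 to 0.658). Without periodontitis 1 and 3 these r values were 0.880, 0.953, 0.876 and -0.28, so they too rest on which libraries are in.

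The genes most like the summed level of the 5 genes were taken from the 8950 other genes whose mean level reached 5 FPKM, as the 10 with the highest Pearson r to log2 of that sum over 6 libraries. They were Syvn1, Ncald, Os9, Hid1, Bhlha15, Edem2, Ube2g2, Lrp10, Ccdc107 and Camsap3, with r from 0.988 to 0.994. As a background, 6.12% of the genes compared had r of at least 0.9 and 17.8% had r of -0.9 or lower, so a high r over these 6 libraries was common. Each r describes libraries that share a scale, and no test was made of it.

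Bhlha15, also called Mist1, a transcription factor of serous secretory cells, had the widest range of the 10. It had 33.7, 32.4 and 38.3 FPKM in controls 1 to 3 and 10.5, 27.5 and 70.5 FPKM in periodontitis 1 to 3. Its highest library was 6.74 times its lowest, against 3.02 times for Lipf. Syvn1, a ubiquitin ligase of the endoplasmic reticulum membrane, had 13.2, 12.9 and 15.002 FPKM in controls, compared with 7.31, 12.1 and 25.8 FPKM in periodontitis 1 to 3. Os9, a lectin that recognises misfolded glycoproteins, spanned 62.4 to 88.3 FPKM, Edem2, a mannosidase-like protein of the same compartment, 20.8 to 55.3 FPKM, and Ube2g2, a ubiquitin-conjugating enzyme, 12.4 to 33.0 FPKM. Hid1, a protein of secretory granule formation, spanned 13.0 to 40.3 FPKM, and Ncald, a neuronal-type calcium sensor, 5.74 to 14.5 FPKM. In each of the 10, periodontitis 1 was lowest and periodontitis 3 highest. The groups overlapped in all 10, with log2 fold changes from -0.32 (Bhlha15) to -0.02 (Os9) and limma adjusted p that rounded to 1.0. The 10 genes were chosen for following a sum that has this order and close group means. Their order, overlap and small differences therefore come from the choice and are no separate result.

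**Figure D4:**
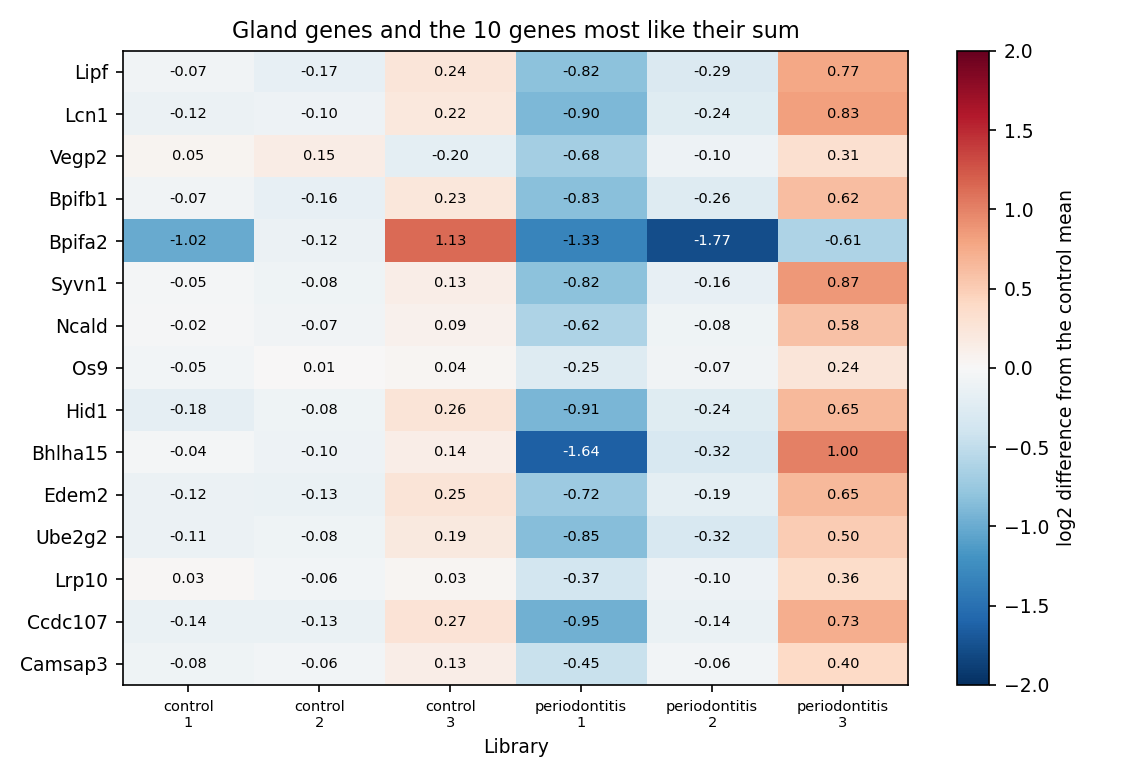
Log2(FPKM + 1) of the 5 gland genes and of the 10 genes most like their sum, as the difference from the control mean, with genes in rows and libraries in columns (red higher, blue lower). Apart from Bpifa2, each gene is lowest in periodontitis 1 and highest in periodontitis 3, for Bhlha15 at -1.64 and 1.002. For the 10 genes this order comes from how they were chosen.

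Bpifa2 lies in a cluster of BPI fold genes, and its neighbour on the same chromosome had a similar order of groups. Bpifa2f, 23053 bases away as the tables place it (chromosome 3, 149524667 to 149533248), had 30.0, 29.0 and 68.7 FPKM in controls 1 to 3 and 12.7, 4.57 and 11.6 FPKM in periodontitis 1 to 3. All 3 periodontitis libraries lay below all 3 controls, and both genes were highest in control 3 and lowest in periodontitis 2. The log2 fold change of Bpifa2f was -2.02 ± 0.44 (SE, limma unadjusted p = 0.00219, adjusted p = 1.0), so it did not pass over all genes. Among all tested genes, 3.59% had groups without overlap that were lower in periodontitis, and 1.97% that were higher. Of the 17 BPI fold relatives listed, 10 were found and 9 tested, 5 had a negative log2 fold change, and Bpifa2f and Pltp, a plasma phospholipid transfer protein, had groups without overlap, both lower. Pltp had 20.5, 19.5 and 22.7 FPKM in controls, compared with 5.17, 16.3 and 14.8 FPKM in periodontitis 1 to 3.

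The most abundant BPI fold relative was Bpifa1, a surface-active airway and oral protein, with 3747, 3617 and 3408 FPKM in controls, compared with 2719, 4835 and 3481 FPKM in periodontitis 1 to 3. Its highest library was periodontitis 2, and its r with the summed gland level was 0.283 over 6 libraries. Bpifb2 ranged from 5.54 FPKM in control 1 to 363 FPKM in control 3. Bpifa5 had a mean of 128 ± 39.3 FPKM in controls, compared with 119 ± 96.7 FPKM in periodontitis, and Lbp, the lipopolysaccharide-binding protein, 22.4 ± 7.47 and 14.95 ± 2.93 FPKM (SD, n = 3). The median log2 fold change of the 9 tested relatives was -0.00, against -0.03 over all tested genes.

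Among 23 listed lipocalins and related carriers, 10 were found and 5 tested, and none came near Lcn1 or Vegp2. Lcn2, an iron-siderophore binding lipocalin, was the highest, with 126 to 226 FPKM over the 6 libraries. Apod, a lipid carrier, had 80.5 ± 16.9 FPKM in controls, compared with 47.2 ± 30.5 FPKM with periodontitis (SD, n = 3), and Obp2a and Rbp4 had at most 8.60 and 3.95 FPKM. C8g had at most 1.61 FPKM. LOC100911507 is a row named here after its values were seen, and what it encodes was not examined. It lies 74688 bases from Vegp2 and had 8306, 5994 and 6178 FPKM in controls, compared with 3791, 4889 and 8367 FPKM in periodontitis 1 to 3. Like the 4 abundant genes it was lowest in periodontitis 1 and highest in periodontitis 3, although control 1 was nearly as high. Of the 5 tested carriers, 3 had a negative log2 fold change, none had groups without overlap, and the median log2 fold change was -0.05.

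Of 17 lipase relatives listed, 8 were found and 7 tested. Lipm and Lipk, acid lipases of keratinised epithelium that lie near Lipf on chromosome 1, ran the other way from it over the libraries. Lipm had 50.8, 56.2 and 36.3 FPKM in controls, compared with 100.2, 63.6 and 20.4 FPKM in periodontitis 1 to 3, with an r of -0.98 to the summed gland level. Such an opposite course was common, since 17.8% of the 8950 genes compared had r of -0.9 or lower. Lipk had 18.9 FPKM in periodontitis 1 and 3.05 FPKM in periodontitis 3, with 8.97 to 14.7 FPKM in controls. Lpl, Lipa, the lysosomal acid lipase, and Lipe, the hormone-sensitive lipase, had means of 17.8, 9.52 and 6.51 FPKM in periodontitis and 22.7, 11.1 and 5.97 FPKM in controls. In this list 4 of the tested genes had a positive and 3 a negative log2 fold change, 0 passed and none had groups without overlap (median log2 fold change 0.06).

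Among 31 listed saliva proteins, 15 were found and 14 tested. Amy1a, salivary amylase, was the highest, with 7326, 6859 and 11479 FPKM in controls, compared with 5268, 6666 and 9651 FPKM in periodontitis 1 to 3. Control 3 and periodontitis 3 were its highest libraries, and the groups overlapped (log2 fold change -0.26 ± 0.42 SE, limma adjusted p = 1.0). Dmbt1, a mucosal scavenger protein, had 447 FPKM in periodontitis 1 and 1056 FPKM in periodontitis 3, with controls between. Slpi, a leukocyte protease inhibitor, went the other way, with 2050 FPKM in periodontitis 1 and 752 FPKM in periodontitis 3. Clu and Cst3 had means of 335 ± 31.8 and 351 ± 52.4 FPKM in controls, compared with 287 ± 25.2 and 265 ± 55.3 FPKM with periodontitis (SD, n = 3). A negative log2 fold change was seen in 11 of the 14 tested, against 57.4% of all tested genes, with a median log2 fold change of -0.24 and 0 passing. Groups without overlap that were higher in periodontitis made up 1.97% of all tested genes, and the 1 saliva gene without overlap was Lpo, lactoperoxidase, at 6.17, 14.96 and 3.14 FPKM against 1.74 to 2.96 FPKM in controls (limma unadjusted p = 0.0276, adjusted p = 1.0).

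Transcription factors of secretory glands were listed as 18 genes, of which 17 were found and tested, 12 with a negative log2 fold change and 0 passing (median log2 fold change -0.18). Xbp1, a regulator of secretory capacity, had 209, 215 and 283 FPKM in controls, compared with 118, 221 and 330 FPKM in periodontitis 1 to 3. It had its lowest and highest levels in the libraries where Lipf had them. Ehf, Barx2, Elf5 and Elf3 had means of 128, 76.9, 36.8 and 32.9 FPKM in controls, compared with 148, 73.9, 40.2 and 38.3 FPKM in periodontitis. Elf3, an epithelial factor, was highest in periodontitis 1 (55.7 FPKM) and lowest in periodontitis 3 (20.7 FPKM).

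Of genes that receive and relay the nerve signals for secretion, 14 of 16 rows found were tested. In this list 9 had a negative log2 fold change, 0 passed and the median log2 fold change was -0.07. The inositol trisphosphate receptor Itpr3 had 11.7 ± 0.672 and 11.1 ± 3.85 FPKM, and the store calcium sensor Stim1 12.9 ± 2.10 and 12.2 ± 3.43 FPKM, in controls and periodontitis (SD, n = 3). Orai1, Gnaq and the higher of 2 Gnas rows had means of 11.9, 11.2 and 36.3 FPKM in controls, compared with 12.8, 12.4 and 30.3 FPKM in periodontitis. In the granule exocytosis list, all 16 rows found were tested, 9 had a negative log2 fold change and 3 had groups without overlap, all lower, against 3.59% of all tested genes (median log2 fold change -0.03). These were Vamp8, a granule SNARE protein, with 103 ± 5.15 FPKM in controls, compared with 86.2 ± 6.59 FPKM with periodontitis (SD, n = 3), and 2 rows of the 1 gene Sytl2, which were listed at 0 in periodontitis 3. Rab3d, a GTPase of secretory granules, had 57.5 ± 5.59 and 55.6 ± 8.58 FPKM (SD, n = 3). Sytl1, Stx4 and Vamp2 had means of 46.7, 42.7 and 37.5 FPKM in controls, compared with 51.1, 44.6 and 34.1 FPKM in periodontitis. The summed level of this list stayed between 354 and 396 FPKM over the 6 libraries, while the summed level of the gland genes ranged from 95550 to 268189 FPKM.

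Markers of other cell types also differed between the libraries, and their part in the levels above was not tested. Of 12 cornified epithelium markers, 10 were found, none at 0, and their summed level was 11238 to 15380 FPKM in controls, compared with 22978, 14924 and 7528 FPKM in periodontitis 1 to 3, the reverse order of the gland genes. Of 12 skeletal muscle markers, 10 were found, none at 0, with sums of 3884 to 5451 FPKM in controls, compared with 1176, 2654 and 3472 FPKM in periodontitis 1 to 3. All 10 muscle markers had a negative log2 fold change (median -1.06) and 0 passed limma's test. Groups without overlap, all lower in periodontitis, were seen in 8 of the 10, against 3.59% of all tested genes, and a limma unadjusted p under 0.05 in 6 of the 10, against 278 of 13154 genes. Of 9 duct markers, 6 were found, none at 0, with 454 to 535 FPKM in controls, compared with 285, 438 and 589 FPKM in periodontitis 1 to 3. Krt18, Krt8 and Kcnn4 had r of 0.974, 0.930 and 0.983 with the summed gland level. Krt19, Krt7 and Cftr did not follow it closely, with r of 0.210, 0.355 and -0.20. Of 7 myoepithelial markers, 6 were found, none at 0, with 954 to 1071 FPKM in controls, compared with 931 to 1500 FPKM in periodontitis. The largest part of this sum was Krt14, with 1213 FPKM in periodontitis 1 and 440 FPKM in periodontitis 3 (r of -0.92 with the summed gland level). The other myoepithelial markers found went the other way, with r from 0.420 (Mylk) to 0.963 (Acta2). Acta2 had 116 FPKM in periodontitis 1 and 285 FPKM in periodontitis 3. The 8 taste cell markers, none at 0, summed to 182 to 208 FPKM in controls, compared with 140 to 198 FPKM in periodontitis. Most of this sum was Krt8, which is also in the duct list, with 83.6 FPKM in periodontitis 1 and 159 FPKM in periodontitis 3. Its r with the summed gland level was 0.930, while that of the other taste cell markers ran from -0.86 (Tas1r2) to 0.562 (Ddc). The sum therefore mostly shows Krt8. Of 12 stomach and pancreas markers, 3 were found and summed to at most 4.16 FPKM, and Cela1 was listed at 0 in 2 libraries.

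The summed level of mucous gland markers set control 3 apart. Of 9 listed, 7 were found, and their sum was 366, 622 and 4231 FPKM in controls 1 to 3 and 516, 928 and 810 FPKM in periodontitis 1 to 3. Tff2, a trefoil peptide, had 3157 FPKM in control 3 and 53.0 to 522 FPKM in the other libraries, and Muc5b, a gel-forming mucin, 594 FPKM and 75.6 to 158 FPKM. Tff3, another trefoil peptide, was listed at 0 in control 1. Control 3 was also the highest library for Bpifa2 and Bpifa2f, while Lipf, Lcn1 and Bpifb1 were highest in periodontitis 3. The FPKM sum per library was 611713 to 660619, genes listed at 0 numbered 72 to 124 in controls and 218, 71 and 174 in periodontitis 1 to 3, and the sequencing depth is unknown, since low values gave no common step.

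**Figure D5:**
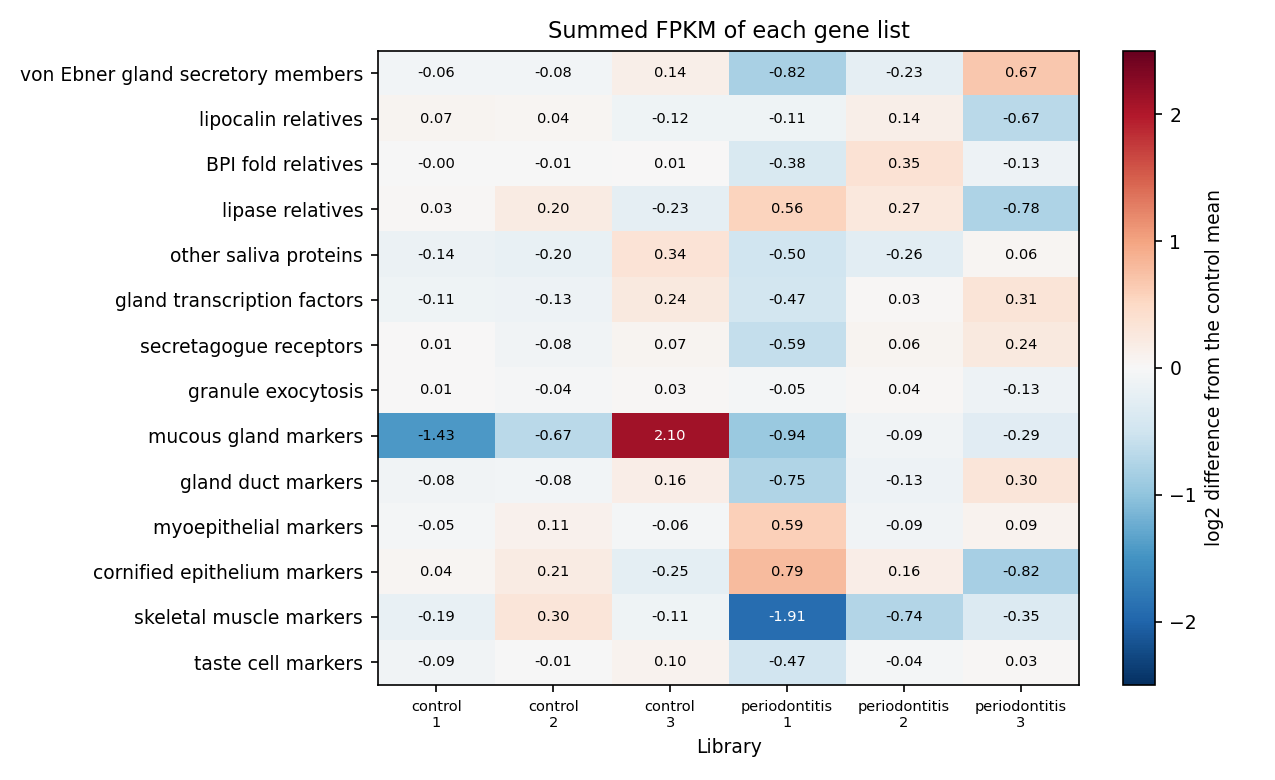
Log2(summed FPKM + 1) of each gene list as the difference from the control mean, with lists in rows and libraries in columns (red higher, blue lower). The gland genes (-0.82 in periodontitis 1 and 0.67 in periodontitis 3) run against cornified epithelium (0.79 and -0.82), and mucous gland markers are highest in control 3 (2.10).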

How the data were processed

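RNA sequencing of tongue tissue gave 1 table of FPKM values per library, made by the authors and named FPKM in the file headers. Cutadapt, FastQC, HISAT2 and StringTie are named, with no version or role, in the submitters' processing notes. Those notes name the mouse build mm10, while the deposited gene identifiers are of rat. Groups came from the disease label and replicate numbers from the titles. From the deposited FPKM values, log2(FPKM + 1) was computed without rescaling. A gene entered the test where 3 or more libraries reached 1 FPKM, and the test was limma 3.58.1 in R 4.3.3, with a mean-variance trend and group as the only term (13154 tested, 1251 left out). The fit was tested on simulated data first. Those data had the spread of the controls in both groups and genes drawn independently, so they do not show the power of the fit here. Shares, ratios and correlations were tested by exact permutation of the 6 libraries (20 assignments, 720 orders), two-sided. The text names the 5 genes, the 10 genes most like their sum and up to 5 genes per list with the highest mean level; others that are named were chosen after their values were seen. The members and lists were chosen with earlier results of these data known. FPKM hides depth, so no counting interval was given, and how reads shared by alike genes were divided between rows is not known. The numbers were not taken as pairing the libraries.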

Additional observations from a re-analysis of the deposited data

How the results depend on the processing

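Under every alternative run, 0 of the 5 genes passed in any fit: replicate number as a block, no filter, a filter on a mean of 5 FPKM, a pseudocount of 0.1, quantile normalization, rescaling without the 5 genes, no trend, or 1 library left out. Quantile normalization sets genes of equal rank equal, so Lipf, Lcn1, Vegp2 and Bpifb1 then had a difference of 0. Rescaling without the 5 genes left the median log2 fold change of all genes at -0.0003, from -0.03. The replicate block (deviations of equal numbers correlated at 0.09, 0.03 and 0.46) gave 3 genes over all genes in place of 0, none of them a member; leaving out control 1 gave 1 gene and the other fits 0. With the block, no share or ratio passed in the paired sign-flip test, which cannot go below 0.25; only libraries numbered 3 correlated best with their own number. The share of the 5 genes together differed by 0.0614 points with or without the block.

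Differences near 0 changed sign. For the 5 genes together the share differed by -0.42 points without mitochondrial genes, 3.06 against all other genes, and -7.03 to 5.68 with 1 library left out. Bpifb1 against all other genes gave 0.280. With periodontitis 2 alone, an alternative added after the data were seen, the shares differed by -2.88 for the 5 genes, -1.31 for Lipf and -0.928 for Lcn1, and log2 ratios by -0.20 (Lipf/Vegp2), -0.0373 (Lipf/Bpifb1) and -0.14 (Lcn1/Vegp2). With 1 library left out, log2 fold changes ran from -0.56 to 0.24 (Lipf), -0.57 to 0.29 (Lcn1), -0.39 to 0.11 (Vegp2) and -0.55 to 0.18 (Bpifb1). Shares ran from -2.49 to 2.11 (Lipf), -2.28 to 2.33 (Lcn1), -1.14 to 0.533 (Vegp2) and -1.12 to 0.706 (Bpifb1) points. Log2 ratios ran from -0.0543 to 0.0159 (Lipf/Lcn1), -0.17 to 0.26 (Lipf/Vegp2), -0.0119 to 0.0805 (Lipf/Bpifb1), -0.18 to 0.25 (Lcn1/Vegp2), -0.0257 to 0.11 (Lcn1/Bpifb1) and -0.21 to 0.16 (Vegp2/Bpifb1). The 3 pairs that passed as correlated numbered 0 to 3 in those fits (3 without control 1 or 2, 0 otherwise). With 5 libraries the exact permutation p moves in coarse steps. The adjusted p of these pairs was 0.0278 or 0.0556, and their lowest r was 0.987. The r of Vegp2 and Bpifa2 ran from -0.24 to 0.575. Of 325 values over all alternatives, 12 correlations of single pairs fell short of the threshold and 0 came to pass it. Depth is unknown, so its limit on Bpifa2 could not be given.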

Other observations

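The genes most like Bpifa2 were other genes than those most like the summed level, in a search added after the data were seen. By the same measure over 8954 genes and 6 libraries they were led by Bag1 (r = 0.984), a co-chaperone with 45.6, 51.8 and 58.3 FPKM in controls 1 to 3 and 46.3, 44.5 and 49.0 FPKM in periodontitis 1 to 3. Tmem51 (0.968), Tomm7 (0.963), a subunit of the mitochondrial import pore, and Ppib (0.963), a proline isomerase of the secretory pathway, followed. With Bpifa2, 0.335% of genes had r of at least 0.9 and 0.313% had r of -0.9 or lower, against 6.12% and 17.8% with the summed level. The genes named were picked for a high r from all those compared, and no test was made of it. The highest library of Bag1 was 1.31 times its lowest, against 8.46 times for Bpifa2.

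Csap1, a common salivary protein gene chosen after its values were seen, had a mean of 6036 ± 815 FPKM in controls, compared with 5737 ± 1297 FPKM with periodontitis (SD, n = 3), and its highest library was 1.46 times its lowest. That range was narrower than those of Lipf (3.02 times), Lcn1 (3.31 times), Bpifb1 (2.75 times) and Amy1a (2.18 times).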
